A study of Mus musculus with 12 samples.

Results

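The genes described here are 8 genes measured in mouse white adipocytes. They are the early response transcription factors Egr1, Egr2 and Egr3 with their corepressors Nab1 and Nab2. The others are the transcription factor Srf and the small early response genes Ier2 and Ier3. All 8 were taken by symbol from a table of 20295 genes, and all were among the 13543 genes with enough reads to be tested. The set was chosen from these same data, because Egr1 stood out there in its response to isoproterenol and to lipase inhibition. The values of Egr1 are therefore given as a description without a test, and counts of called genes are over the 7 others. Those 7 were also chosen with earlier results of these data known, so their p-values and counts are not free of that choice. Egr2 and Egr3 in particular followed Egr1 over the 12 libraries (Pearson's r of 0.904 and 0.947).

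The samples were mature adipocytes of epididymal fat (eWAs) from lean male C57/BL6J mice, freed with collagenase and collected by floatation. They were seeded at 50000 cells per well in a hydrogel and used at day 2 of culture. The 12 libraries fall into 4 groups of 3. DMSO cultures received vehicle. ISO cultures received isoproterenol, an agonist of all β-adrenergic receptors, for 3 h. Lip cultures were given blockers of ATGL and HSL (Atglistatin and CAY10499 in the study's methods) without ISO. Lip+ISO cultures received the inhibitors first and then ISO for 3 h. All 4 groups share the strain, sex, tissue and culture, and an age is not given in the labels. The libraries held 22632220 to 43707557 counts each, and the members had 164 to 14579 counts per library. Levels are given in CPM, the usual read count scaled to sequencing depth with TMM-adjusted library totals, as mean ± SD with n = 3. In such bulk cultures, fewer cells of a type and less RNA per cell cannot be told apart.

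The EGR proteins are zinc finger factors that bind GC-rich sites, and their genes are among the first to be transcribed after growth factor, calcium or cAMP signals. The NAB proteins bind EGR factors and repress their activity, and Nab2 is itself a known EGR target, which makes a feedback loop. SRF binds the CArG box together with either ternary complex factors (TCFs), which are activated by ERK kinases, or the actin-sensing cofactors of the MRTF family. It drives many immediate early genes and also its own gene. In adipocytes, β-adrenergic stimulation raises cAMP and starts lipolysis, in which ATGL and HSL release fatty acids from the lipid droplet. The comparison of ISO with and without lipase inhibitors addresses which part of a gene's response depends on active lipases. For brown adipocytes, the paper proposes that the inhibitors also increase signaling by the cAMP-activated kinase PKA under ISO. Such a change and the loss of lipolysis cannot be told apart here.

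The promoters of Srf and Egr2 are shown because they hold the elements through which SRF and cAMP-activated factors are known to act. They are the 250 bases before the transcript start from RefSeq (GRCm38.p6), where Srf lies at chr17:46556163-46556412 on the minus strand and Egr2 at chr10:67537619-67537868 on the plus strand. Capitals mark each CArG box and each short cAMP response element, TGACG, on either strand.
Srf: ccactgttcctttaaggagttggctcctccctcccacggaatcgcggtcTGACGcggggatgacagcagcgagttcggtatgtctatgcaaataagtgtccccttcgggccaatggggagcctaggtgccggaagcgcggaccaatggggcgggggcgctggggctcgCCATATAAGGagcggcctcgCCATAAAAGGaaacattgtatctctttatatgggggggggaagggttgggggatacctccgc
Egr2: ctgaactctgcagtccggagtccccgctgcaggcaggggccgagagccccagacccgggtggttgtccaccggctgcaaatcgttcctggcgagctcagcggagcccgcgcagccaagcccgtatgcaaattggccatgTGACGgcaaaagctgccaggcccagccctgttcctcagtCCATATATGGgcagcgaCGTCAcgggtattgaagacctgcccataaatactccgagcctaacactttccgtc
The Srf promoter holds 2 CArG boxes, from -82 to -73 and from -62 to -53 relative to the start. It also holds a short CRE from -201 to -197, and an EGR site, GCGTGGGCG or GCGGGGGCG, from -101 to -93. The Egr2 promoter holds 1 CArG box from -72 to -63, between short CREs from -111 to -107 and from -55 to -51. RefSeq lists 5 starts for Egr2, and the one shown is that of the counted gene, which begins at position 67000617 of chromosome 10 in mm9, the build of the count table.

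Of the 8 genes, 5 had a promoter in the table (Egr2, Nab1, Nab2, Srf and Ier3). In Nab1, 3 EGR sites were found, from -141 to -133, from -109 to -101 and from -38 to -30, beside 1 short CRE from -123 to -119. None of the searched motifs was found in the Nab2 or Ier3 window, which says only that those letters are not in it. Among 32851 promoters of 300 bases in the same table (250 before the start and 50 after it), a CArG box was found in 1.63%, a short CRE in 20.8%, the full CRE TGACGTCA in 1.79%, an EGR site in 3.47% and the TATA box TATAAA in 13.6%. A full CRE was not found in any of the members' promoters, and every full CRE also counts as a short one. The map of motif matches places them by distance from the start.

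**Figure D1:**
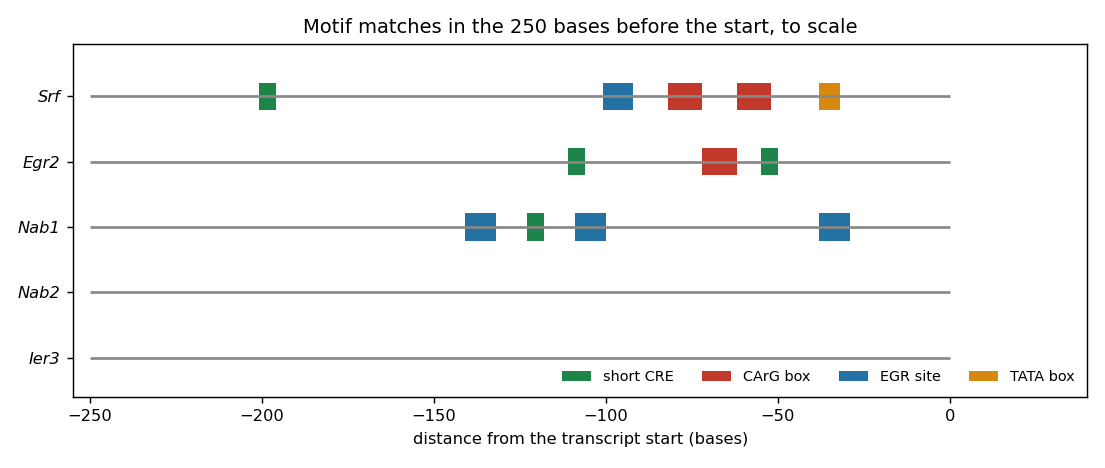
Matches to 4 motifs in the 250 bases before the transcript start of 5 genes, with the distance from the start in bases on the x axis and motif widths to scale. The CArG boxes of Srf and Egr2 all lie between -82 and -53, Nab1 holds 3 EGR sites, and the lines of Nab2 and Ier3 carry no match.

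Egr1 (NM_007913, mm9 chromosome 18, 35020861 to 35024610, plus strand), the best known member of the family, was the gene on whose values the set was selected. Its level was 27.6, 36.9 and 32.5 CPM in the 3 DMSO libraries and 431, 330 and 354 CPM in the 3 ISO libraries. With inhibitors it was 22.2, 25.6 and 21.3 CPM in Lip and 47.1, 38.1 and 38.1 CPM in Lip+ISO. The ISO libraries stood far above all others, and each of the 4 groups was separate from the next, in the order Lip, DMSO, Lip+ISO and ISO. The fold change was 11.5 for ISO against DMSO, a log2 difference of 3.52 ± 0.14 (SE), and 0.83 ± 0.14 for Lip+ISO against Lip. The gain of 339 ± 30.5 CPM (SE) with ISO alone compares with 18.0 ± 3.28 CPM under inhibitors, which left 5.32 ± 1.08% of it.

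Egr2 (NM_010118, chromosome 10, 67000617 to 67004936, plus strand), which is known for its part in myelination and early adipogenesis, rose with ISO alone. The DMSO libraries held 19.96, 26.2 and 12.8 CPM and the ISO libraries 49.8, 53.0 and 60.1 CPM, with no overlap between these groups. The Lip libraries held 18.8, 21.8 and 12.4 CPM, and the Lip+ISO libraries 21.4, 25.0 and 14.3 CPM. These last groups overlapped each other and DMSO, so that ISO was the only group whose libraries stood apart. The log2 fold change of Egr2 was 1.47 ± 0.26 (SE) for ISO against DMSO (adjusted p = 0.00148, edgeR), and 0.20 ± 0.26 with inhibitors (adjusted p = 0.649).

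Egr3 (NM_018781, chromosome 14, 70477252 to 70482420, plus strand), a relative that is best studied in neurons, muscle spindles and lymphocytes, followed the same order. It held 8.24, 12.1 and 6.42 CPM in DMSO and 25.5, 23.3 and 26.5 CPM in ISO. It held 8.004, 9.69 and 7.03 CPM in Lip and 13.5, 10.8 and 9.25 CPM in Lip+ISO. The ISO libraries lay above every other library, while DMSO, Lip and Lip+ISO overlapped. Its log2 fold change was 1.49 ± 0.21 (SE) for ISO against DMSO (adjusted p = 0.000272, edgeR) and 0.44 ± 0.21 with inhibitors (adjusted p = 0.151).

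For both genes the library of replicate 3 was the lowest in DMSO, Lip and Lip+ISO and the highest in ISO. Of the gain with ISO alone, 7.36 ± 12.2% (SE) was left under inhibitors for Egr2 and 18.4 ± 9.38% for Egr3. An absent response lies within the error of Egr2. For Egr3 the 95% interval of the log2 fold change under inhibitors, -0.017 to 0.90, also holds an absent response. In the direct comparison of Lip+ISO with ISO, Egr2 fell by 1.42 on the log2 scale (SE 0.26, adjusted p = 0.00484) and Egr3 fell by 1.16 (SE 0.21, adjusted p = 0.00418). The difference between the responses themselves was -1.27 ± 0.37 for Egr2 (adjusted p = 0.127) and -1.05 ± 0.30 for Egr3 (adjusted p = 0.118), neither of which passed over all genes in the main test. With DESeq2 both passed (adjusted p = 0.019 for Egr2 and 0.0231 for Egr3). Both also passed by edgeR with the replicate number as a block (adjusted p = 0.0133 for Egr2 and 0.0299 for Egr3). Egr3 passed by edgeR without DMSO replicate 2 too (-1.32, adjusted p = 0.0287). The fall of Egr2 against ISO did not pass without replicate 1 of all groups (-1.51, adjusted p = 0.055).

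**Figure D2:**
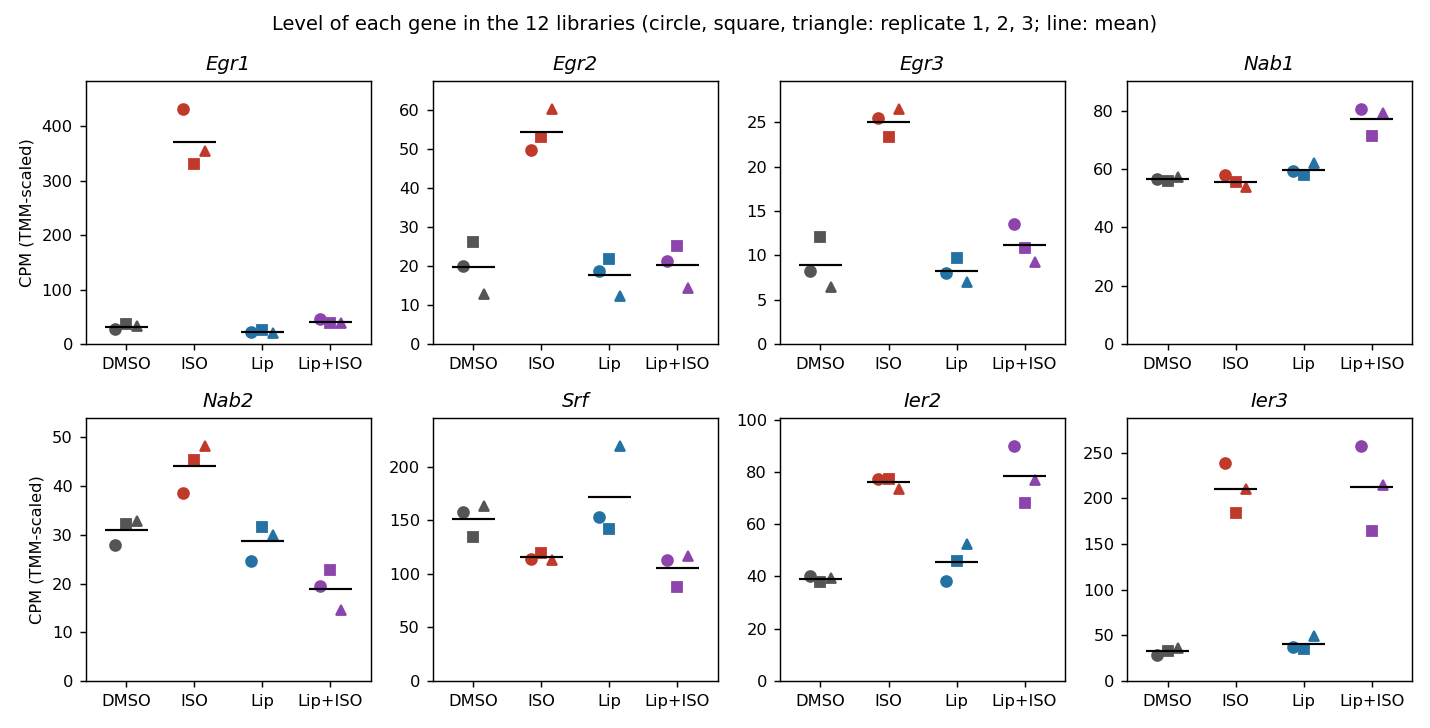
Level of each of the 8 genes in CPM (y axis, from 0) in the 12 libraries by group (x axis), where circle, square and triangle are replicates 1, 2 and 3 and the line is the mean. Egr1, Egr2 and Egr3 are high in ISO only, Nab2 is lowest and Nab1 highest in Lip+ISO, and Ier2 and Ier3 are high in both ISO groups.

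The fourth family member, Egr4, was not in the set and was scarce. It had 3, 5 and 0 counts in DMSO, 31, 40 and 22 in ISO, 5, 6 and 3 in Lip, and 12, 8 and 3 in Lip+ISO. Its ISO libraries were again above all others. Per kilobase of counted exon, the summed level of the 4 EGR genes was 19.5 ± 4.00 CPM per kb in DMSO, 146 ± 16.6 in ISO, 15.7 ± 2.66 in Lip and 23.2 ± 3.34 in Lip+ISO. Egr1 made up 54.7 ± 7.98% of that sum in DMSO and 82.5 ± 2.49% in ISO, against 48.3 ± 4.44% in Lip and 57.9 ± 5.49% in Lip+ISO. Egr2 accounted for 33.5 ± 6.39% in DMSO and 12.7 ± 2.13% in ISO. On this per-length scale, Egr1 was therefore the largest EGR transcript in every group, with its highest share in ISO. Egr2 came second in every group, at 37.6 ± 4.65% in Lip and 29.1 ± 5.71% in Lip+ISO.

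**Figure D3:**
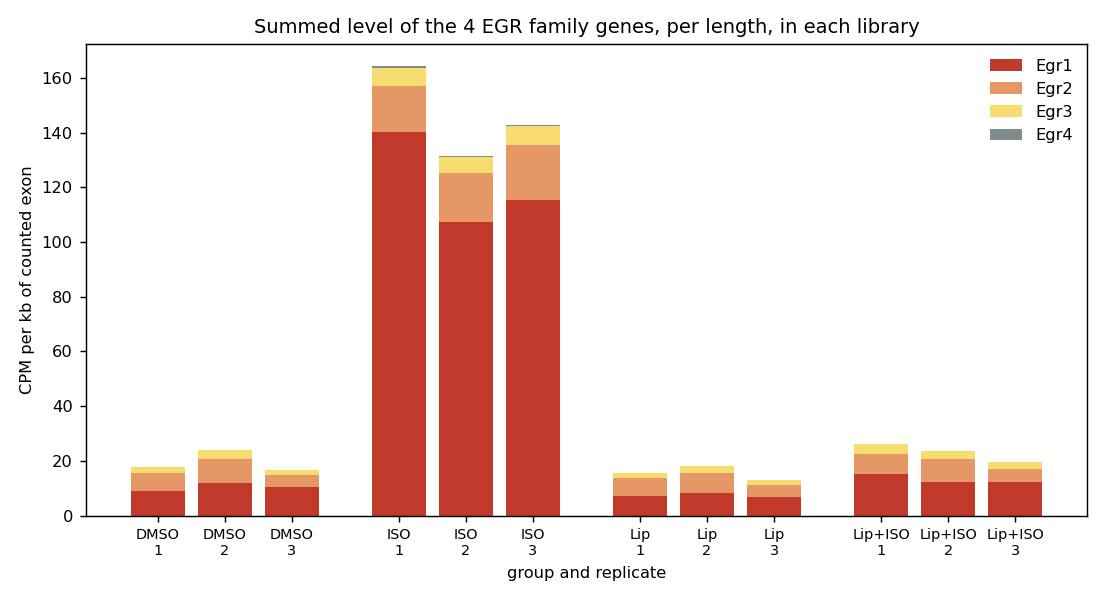
Summed level of Egr1, Egr2, Egr3 and Egr4 per length in each library, in CPM per kb of counted exon (y axis, from 0), by group and replicate (x axis), with 1 colour per gene. The 3 ISO libraries average 146 CPM per kb, mostly Egr1, and the other groups average 15.7 to 23.2.

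Of the corepressors, Nab2 (NM_008668, chromosome 10, 127097974 to 127103759, minus strand) moved in opposite directions with and without inhibitors. It held 27.9, 32.3 and 32.9 CPM in DMSO and 38.5, 45.5 and 48.3 CPM in ISO. With inhibitors it held 24.7, 31.6 and 30.1 CPM in Lip and 19.5, 22.9 and 14.6 CPM in Lip+ISO. The Lip+ISO libraries lay below all others and the ISO libraries above all others, while DMSO and Lip overlapped. Nab2 rose by 0.51 ± 0.15 (SE, log2) with ISO alone (adjusted p = 0.0277, edgeR) and fell by 0.60 with ISO under inhibitors (SE 0.16, adjusted p = 0.0116). The rise did not pass without DMSO replicate 1 (0.43, adjusted p = 0.11), DMSO replicate 3 (0.55, 0.056), ISO replicate 2 (0.48, 0.0833) or ISO replicate 3 (0.44, 0.0981), nor with library totals (0.47, 0.0715) or with any replicate number left out in all groups (largest adjusted p = 0.112). The fall did not pass without replicate 3 of all groups (-0.41, adjusted p = 0.122).

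The response of Nab2 to ISO differed between the cultures with and without inhibitors by -1.11 ± 0.22 (SE, log2, adjusted p = 0.0243). It was the only one of the 7 genes past the threshold for this difference in the main test. With the replicate number as a block Nab2 passed as well (-1.10, adjusted p = 0.00526, edgeR), and so did Egr2, Egr3 and Nab1. The difference of Nab2 kept its sign in every fit that left out libraries. It did not pass without DMSO replicate 1 (-1.04, adjusted p = 0.0739) or 3 (-1.15, 0.0514), ISO replicate 2 (-1.08, 0.068) or 3 (-1.04, 0.07), Lip replicate 2 (-1.03, 0.0729) or 3 (-1.07, 0.0552), or with a replicate number left out in all groups (largest adjusted p = 0.243). Against ISO, Nab2 in Lip+ISO fell by 1.22 (SE 0.16, adjusted p = 0.000407), and against DMSO it fell by 0.71 (SE 0.16, adjusted p = 0.00429), which did not pass without replicate 3 of all groups (-0.51, adjusted p = 0.0629). Nab2 overlaps the end of Stat6 on the other strand by 70 bases, and whether the counting used strand is not stated, so reads in that stretch cannot be assigned with certainty. Stat6, the signal transducer of interleukin-4, held 113 ± 2.32, 98.1 ± 3.59, 115 ± 1.34 and 90.5 ± 10.0 CPM in DMSO, ISO, Lip and Lip+ISO. Its log2 fold change was -0.20 ± 0.08 for ISO against DMSO (adjusted p = 0.0796) and -0.12 ± 0.08 for Lip+ISO against ISO (adjusted p = 0.407). Stat6 fell, as Nab2 did, for Lip+ISO against Lip (-0.35 ± 0.08, adjusted p = 0.00507) and against DMSO (-0.32 ± 0.08, adjusted p = 0.00916). The part of shared reads in the values of Nab2 was not tested.

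Nab1 (NM_008667, chromosome 1, 52512693 to 52557292, minus strand), whose promoter holds the 3 EGR sites, lay within a narrow range in 3 groups and was higher in Lip+ISO. It held 56.6, 55.8 and 57.2 CPM in DMSO, 58.0, 55.4 and 53.8 CPM in ISO, and 59.5, 57.9 and 62.0 CPM in Lip. In Lip+ISO it held 80.5, 71.5 and 79.3 CPM, above every other library. The log2 fold change was -0.02 (95% interval -0.17 to 0.13, adjusted p = 0.842) for ISO against DMSO. Nab1 rose by 0.37 ± 0.07 (SE) for Lip+ISO against Lip (adjusted p = 0.00151), and by 0.47 ± 0.07 against ISO (adjusted p = 0.00114). The difference between the responses was 0.39 ± 0.10 (adjusted p = 0.074), which did not pass in the main test and passed with DESeq2 (adjusted p = 0.013). By edgeR it passed with the replicate number as a block (0.39, adjusted p = 0.0222) and without Lip+ISO replicate 2 (0.45, adjusted p = 0.0449).

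The corepressors changed in opposite directions with ISO under inhibitors. Per length, Nab2 held 12.4 ± 1.105 CPM per kb in DMSO against 11.1 ± 0.137 for Nab1, and 17.6 ± 2.01 in ISO against 10.95 ± 0.421. In Lip the pair lay within their spread, with 11.5 ± 1.45 CPM per kb for Nab2 and 11.75 ± 0.402 for Nab1. In Lip+ISO Nab1 was the higher of the pair, with 7.58 ± 1.66 CPM per kb for Nab2 and 15.2 ± 0.968 for Nab1. The ratio of Egr1 to Nab2 per length was 0.848 ± 0.0725 in DMSO, 7.01 ± 1.83 in ISO, 0.658 ± 0.0784 in Lip and 1.82 ± 0.408 in Lip+ISO. That ratio rests on Egr1, whose values chose the set, and is given as a description.

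Srf (NM_020493, chromosome 17, 46683788 to 46693111, minus strand) was lower in both groups that received ISO. It held 157, 135 and 163 CPM in DMSO and 114, 119 and 113 CPM in ISO, without overlap. It held 153, 142 and 219 CPM in Lip, where 1 library was high, and 113, 87.8 and 117 CPM in Lip+ISO. Both ISO groups lay below both groups without ISO, and they overlapped each other, as did DMSO and Lip. The log2 fold change of Srf for ISO against DMSO was -0.39 ± 0.15 (SE), which missed the threshold in the main test (adjusted p = 0.076, edgeR). It passed when the replicate number was a block, at -0.38 (adjusted p = 0.0217), with library totals at -0.43 (adjusted p = 0.0417), when only these groups were fitted at -0.39 (adjusted p = 0.0089), and without Lip replicate 3 at -0.40 (adjusted p = 0.0206).

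With inhibitors, Srf fell by 0.70 (SE 0.15, adjusted p = 0.00425) for Lip+ISO against Lip, and by 0.52 (SE 0.15, adjusted p = 0.0222) against DMSO. The latter did not pass without DMSO replicate 1 (-0.50, adjusted p = 0.0663), DMSO replicate 3 (-0.47, 0.0804) or Lip+ISO replicate 2 (-0.40, 0.0902), nor with replicate 1 or 2 left out of all groups. The difference between the responses was -0.31 ± 0.22 (adjusted p = 0.594), with a 95% interval of -0.77 to 0.16. So a smaller, an equal or a moderately larger fall under inhibitors all lie within the error. Per length, Srf was the most abundant of the 8 genes in DMSO, at 37.1 ± 3.67 CPM per kb, ahead of Ier3 at 29.9 ± 3.66, Ier2 at 25.7 ± 0.663, Nab2, Nab1 and Egr1 at 10.5 ± 1.52, then Egr2 at 6.63 ± 2.25 and Egr3 at 2.30 ± 0.747. Nab2, Nab1 and Egr1 were neighbours within their spread.

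Ier3 (NM_133662, chromosome 17, 35958658 to 35959856, plus strand), a short-lived regulator of survival and ERK signaling, rose with ISO whether or not the lipases were inhibited. It held 28.5, 32.9 and 36.5 CPM in DMSO and 238, 184 and 211 CPM in ISO. It held 36.8, 35.3 and 49.2 CPM in Lip and 258, 164 and 215 CPM in Lip+ISO. The groups with and without ISO were far apart, and the inhibitors did not separate either pair. Ier3 rose by 2.69 ± 0.18 (SE, log2) with ISO alone (adjusted p = 5.88e-07, edgeR) and by 2.39 ± 0.18 with inhibitors (adjusted p = 6.85e-07).

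Ier2 (NM_010499, chromosome 8, 87185230 to 87186751, minus strand), a nuclear protein induced early by growth factors, gave the same order at a smaller size. It held 40.05, 38.1 and 39.4 CPM in DMSO and 77.5, 77.4 and 73.3 CPM in ISO. It held 38.4, 45.9 and 52.4 CPM in Lip and 90.0, 68.1 and 76.9 CPM in Lip+ISO. Again the groups with ISO lay above those without it and overlapped each other. Ier2 rose by 0.96 ± 0.12 (SE, log2) with ISO alone (adjusted p = 7.86e-05) and by 0.78 ± 0.12 with inhibitors (adjusted p = 0.000238).

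Under inhibitors, 96.4 ± 17.6% (SE) of the ISO gain was left for Ier3 and 88.8 ± 20.7% for Ier2. The log2 difference between Lip+ISO and ISO was 0.01 for Ier3 (95% interval -0.35 to 0.37, adjusted p = 0.98). For Ier2 it was 0.04 (95% interval -0.21 to 0.29, adjusted p = 0.864). The differences between the responses were -0.30 ± 0.24 for Ier3 (adjusted p = 0.643) and -0.18 ± 0.16 for Ier2 (adjusted p = 0.692). These intervals leave room for moderate effects of the inhibitors on either gene, but not for falls as large as those of Egr2 and Egr3 against ISO.

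**Figure D4:**
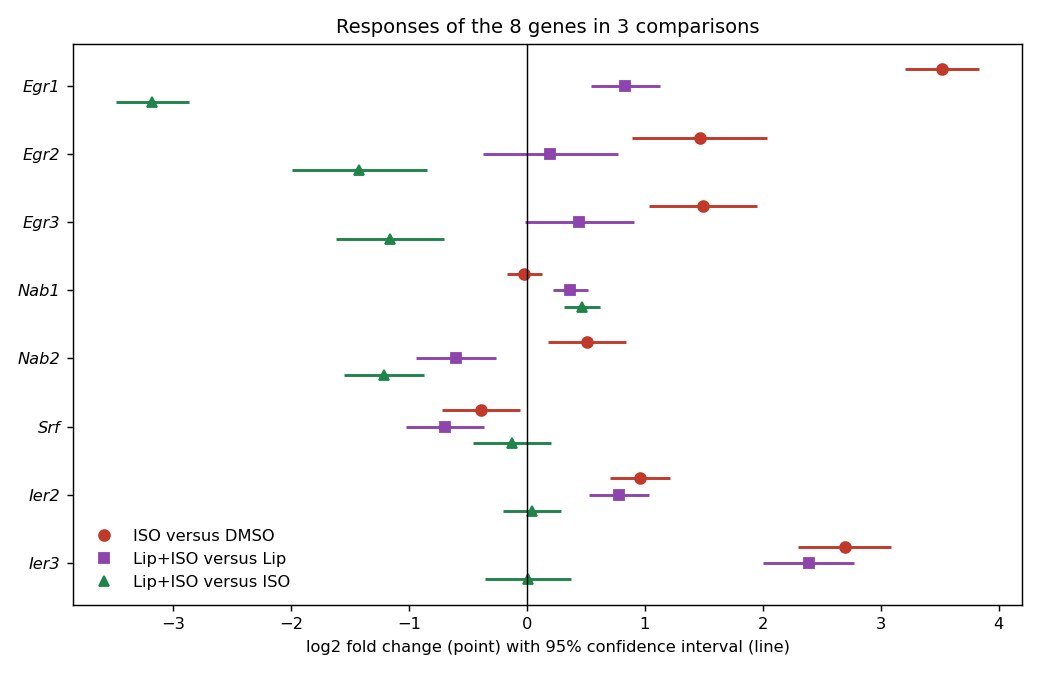
Log2 fold change (x axis) of the 8 genes (y axis) in 3 comparisons, with 95% confidence intervals as lines. For Egr1, Egr2 and Egr3 the points of ISO against DMSO lie right of those under inhibitors and Lip+ISO against ISO lies left of 0, while for Ier2 and Ier3 Lip+ISO against ISO sits at 0.04 and 0.01.

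The calls over the 7 genes other than Egr1 are set beside all tested genes as a description, since the 7 were chosen with earlier results known. A call here needs an adjusted p of 0.05 or less together with a change of at least 2-fold. For ISO against DMSO, 3 of 7 were called (Egr2, Egr3 and Ier3, all higher) with 7.48% of all genes, and 5 of 7 rose at the adjusted p alone with 26.2% of all genes changed in either direction. With the replicate number as a block, Srf also fell at the adjusted p alone (adjusted p = 0.0217, edgeR). Under inhibitors, ISO gave 1 call of 7 (Ier3) with 7.35% of all genes. At the adjusted p alone 3 rose (Nab1, Ier2 and Ier3) and 2 fell (Nab2 and Srf), with 27.3% of all genes changed. For Lip+ISO against ISO, 3 of 7 were called (Egr2, Egr3 and Nab2, all lower) with 1.99% of all genes, and Nab1 also rose at the adjusted p alone, where 8.94% of all genes changed.

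For Lip+ISO against DMSO, Ier2 and Ier3 were called higher, with 8.16% of all genes called, and at the adjusted p alone Nab1 also rose and Nab2 and Srf fell, with 28.4% of all genes changed. Ier2 was at the edge of this call, with a log2 fold change of 1.00 ± 0.12 (adjusted p = 3.41e-05), and fell just under the 2-fold limit with the replicate block. For the difference between the responses, 1 of 7 was called (Nab2), with 0.746% of all genes called and 1.62% at the adjusted p alone. Since Egr2, Egr3 and Nab2 fell in Lip+ISO against ISO, a comparison that shares the ISO libraries with that of ISO against DMSO, the agreement of these comparisons is not counted as a further result.

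The inhibitors alone gave no clear change in the 7 members other than Egr1, though moderate changes lie within the error. None of the 7 passed for Lip against DMSO by edgeR, where all 7 had an adjusted p of 1 and none had an unadjusted p under 0.05. DESeq2 also passed none of them. Their log2 fold changes lay between -0.16 for Egr2 (95% interval -0.73 to 0.42) and 0.31 for Ier3 (95% interval -0.06 to 0.69). Egr1 stood at -0.49 ± 0.14 (SE), and its Lip libraries were all below its DMSO libraries. Over all genes 0.0222% were called and 0.0517% passed at the adjusted p alone, while 582 genes had an unadjusted p under 0.05.

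The wider pathway was described with lists drawn up with earlier results of these data known, and counts are at the adjusted p alone. Of 18 genes listed as immediate early targets of SRF and TCFs, a control that was not tested here, 16 rose with ISO alone and none fell. Their median log2 fold change was 1.61 against 0.002 over all genes, where 26.2% of all genes changed. The largest were the Krüppel-like factor Klf4 (4.20 ± 0.26, adjusted p = 3.09e-07), the AP-1 subunits Fosb (3.71 ± 0.38, adjusted p = 1.78e-05) and Junb (3.06 ± 0.31, adjusted p = 1.73e-05), and the prostaglandin synthase Ptgs2 (2.42 ± 0.32, adjusted p = 0.000158). Under inhibitors 17 rose and 1 fell, where 27.3% of all genes changed, with a median of 1.34. This group, like Ier2 and Ier3, thus responded in both settings.

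Between Lip+ISO and ISO, the median of these 18 genes was -0.02, against -0.009 over all genes. Of the 18, 4 passed, where 8.94% of all genes changed. The AP-1 subunit Fos (-1.46 ± 0.17, adjusted p = 0.000169) and the growth regulator Myc (-1.29 ± 0.11, adjusted p = 1.83e-05) were lower, and the AP-1 subunits Fosl1 (0.80 ± 0.17, adjusted p = 0.0108) and Jund (0.58 ± 0.16, adjusted p = 0.0451) were higher. For the difference between the responses, Myc was lower (-1.39 ± 0.15, adjusted p = 0.000761) and Klf10 higher (0.48 ± 0.11, adjusted p = 0.0459), beside 1.62% of all genes. Myc stood at 54.4 CPM in DMSO, 65.8 in ISO, 58.2 in Lip and 26.8 in Lip+ISO as group means, highest in ISO and lowest in Lip+ISO, as Nab2 was. Of these calls, that of Fosl1 was lost in 3, that of Jund in 11 and that of Klf10 in 14 of 15 fits that left out libraries, and the difference between the responses of Myc in 1 of 15.

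Of 15 genes under SRF and MRTF control, mostly of the cytoskeleton and adhesion, 2 rose and 1 fell with ISO alone, where 26.2% of all genes changed, with a median of -0.03 against 0.002 over all genes. These were the integrin subunit Itga5 (1.096 ± 0.18, adjusted p = 0.000704), filamin Flna (0.37 ± 0.10, adjusted p = 0.0191) and the matricellular Cyr61 (-0.84 ± 0.18, adjusted p = 0.00445). Under inhibitors ISO raised 1 of them, Flna, and lowered 6, where 27.3% of all genes changed, including Cyr61 (-1.79 ± 0.18, adjusted p = 1.14e-05) and smooth muscle actin Acta2 (-1.31 ± 0.28, adjusted p = 0.0039), with a median of -0.64. Srf, whose gene is itself a target of this pathway, was also lower there. Between Lip+ISO and ISO, 1 rose (Flna) and 2 fell (Cyr61 and Itga5), where 8.94% of all genes changed, with a median of -0.31. For the difference between the responses 1 passed, Itga5 (-1.39 ± 0.25, adjusted p = 0.0142), beside 1.62% of all genes. Its call was lost in 2 of 15 fits that left out libraries. The change of Flna with ISO alone was lost in 4 of these fits, and against ISO those of Cyr61, Flna and Itga5 were lost in 7, 2 and 1 of 15.

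Of 16 SRF cofactors and ERK pathway kinases, 1 rose and 3 fell with ISO alone, with a median of 0.07, and 4 rose and 5 fell under inhibitors, beside 26.2% and 27.3% of all genes changed. The one that rose with ISO alone was the kinase gene Map2k1 (0.26 ± 0.08, adjusted p = 0.0314), a call lost in 9 of 15 fits that left out libraries and without the filter on low counts. The MRTF genes Mkl1 (-0.42 ± 0.12, adjusted p = 0.0201) and Mkl2 (-0.53 ± 0.09, adjusted p = 0.00135) and the stress kinase gene Mapk14 (-0.48 ± 0.08, adjusted p = 0.000607) were the ones that fell with ISO alone, and the call of Mkl1 was lost in 6 of 15 fits that left out libraries. No gene of the list passed for the difference between the responses by edgeR, where 3 had an unadjusted p under 0.05 and 1 passed by DESeq2.

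Of 15 genes that EGR factors are known to regulate, 7 rose and 2 fell with ISO alone, with a median of 0.56 against 0.002 over all genes, and 5 rose and 2 fell under inhibitors, with a median of 0.31 against -0.004. The shares of all genes that changed there were 26.2% and 27.3%. Arc, a synaptic gene with EGR sites, followed Egr1 closely, with group means of 24.1 CPM in DMSO, 147 in ISO, 19.5 in Lip and 24.8 in Lip+ISO. Its response differed between the settings by -2.26 ± 0.34 (adjusted p = 0.00434). Fgf2, a growth factor gene, went the other way (1.37 ± 0.27, adjusted p = 0.024), with group means of 23.6, 37.1, 31.7 and 128 CPM in DMSO, ISO, Lip and Lip+ISO. The calls for the difference between the responses were lost in 2 of 15 fits that left out libraries for Arc and in 9 of 15 for Fgf2. Between Lip+ISO and ISO, 3 of the 15 rose and 2 fell, beside 8.94% of all genes.

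The 4 further relatives, Egr4, Wt1, Ier5 and Ier5l, all rose with ISO alone, with a median of 1.69 against 0.002 over all genes. Under inhibitors Wt1 and Ier5 rose. The shares of all genes that changed there were 26.2% and 27.3%. With ISO alone, the call of Egr4 was lost without replicate 1 of all groups (adjusted p = 0.0637), and that of Ier5l without ISO replicate 2 (adjusted p = 0.0788) and without replicate 1 of all groups (adjusted p = 0.089). None passed between Lip+ISO and ISO, or for the difference between the responses, by edgeR or DESeq2. In each of these, 1 of the 4 had an unadjusted p under 0.05, and DESeq2 gave no adjusted p for 1. Ier5, a heat shock regulator related to Ier2, had group means of 138 ± 18.6 CPM in DMSO, 521 ± 53.3 in ISO, 169 ± 37.5 in Lip and 464 ± 108 in Lip+ISO, with both ISO groups above both groups without ISO, as for Ier2 and Ier3. None of the genes of these 5 lists passed for Lip against DMSO by edgeR or DESeq2, and an unadjusted p under 0.05 was found for 4 of the 18 SRF-TCF genes, 2 of the 15 EGR-regulated genes and 0 in the other lists.

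**Figure D5:**
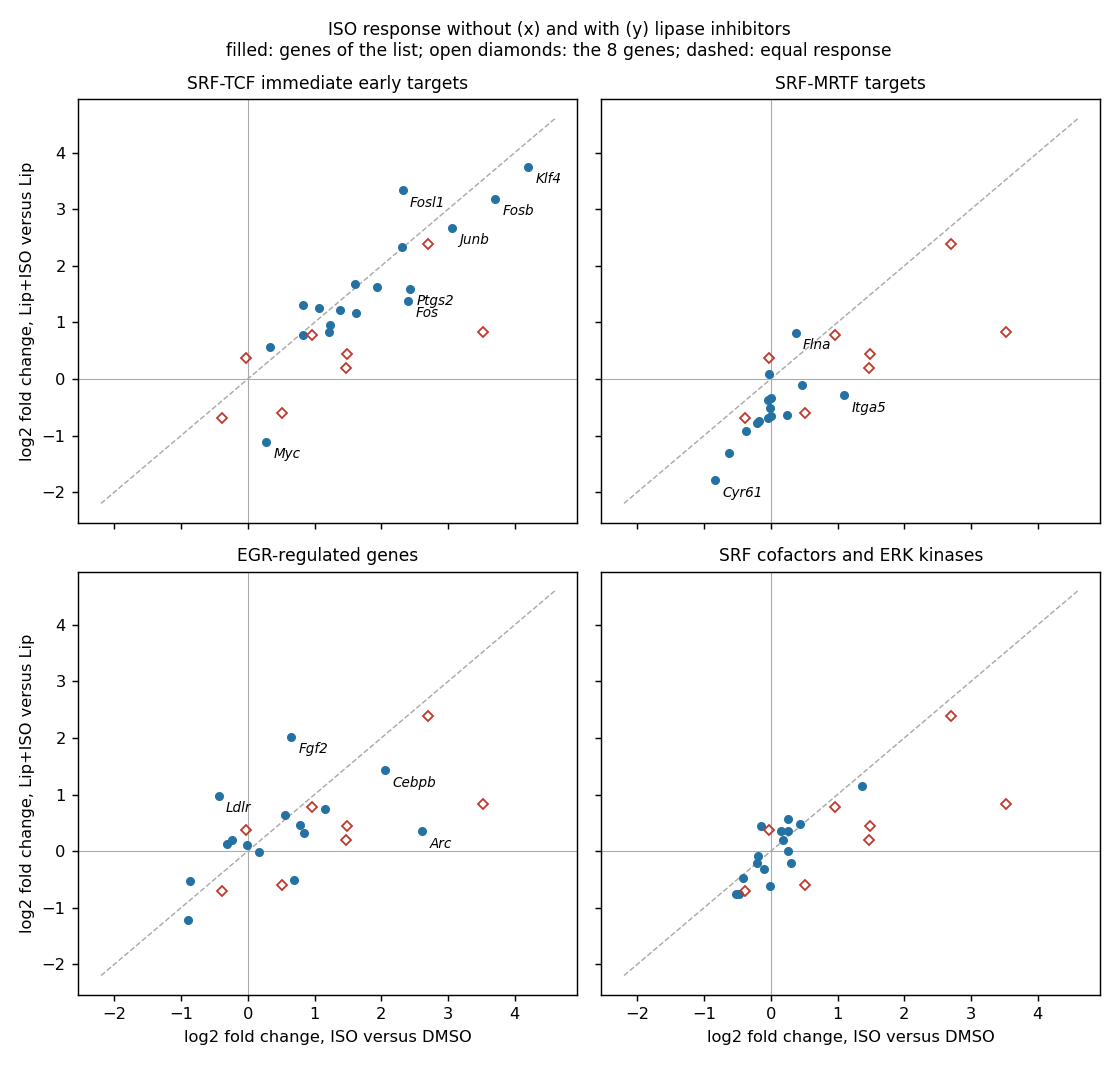
Log2 fold change with ISO without inhibitors (x axis) and with inhibitors (y axis) for the genes of 4 lists (filled) and the 8 genes described here (open diamonds), where the dashed line marks equal responses. Most SRF-TCF genes lie near the line, Myc, Fos, Arc and Itga5 lie below it, and Fgf2 and Fosl1 lie above it.

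Of the marker sums of other cell types, only those of fibroblasts and mesothelial cells had their ISO libraries above all others, as the EGR genes did. The summed level of 8 fibroblast and preadipocyte markers was 468 to 825 CPM in DMSO, 925 to 1244 in ISO, 616 to 667 in Lip and 563 to 793 in Lip+ISO, so that its ISO libraries also stood above all others. Of these, 4 rose with ISO alone and the same 4, Pdgfra, Col1a1, Col1a2 and Col3a1, fell in Lip+ISO against ISO, beside 26.2% and 8.94% of all genes changed. Pdgfra, the receptor that marks fibroblastic progenitors, had log2 fold changes of 0.93 ± 0.23 (adjusted p = 0.0109) and -1.03 ± 0.23 (adjusted p = 0.0152) in these comparisons. For the difference between the responses 1 of the 8 passed by edgeR, Col1a2 (-1.03 ± 0.23, adjusted p = 0.0455), beside 1.62% of all genes. There 4 of the 8 markers had an unadjusted p under 0.05, and 3 passed by DESeq2. Their part in the values of Egr1, Egr2, Egr3 and Nab2 was not tested.

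The summed level of 10 macrophage markers was 53.3 to 66.8 CPM in DMSO, 100 to 151 in ISO, 56.0 to 61.6 in Lip and 65.2 to 113 in Lip+ISO. Of 9 tested, 5 rose with ISO alone and 2 under inhibitors, beside 26.2% and 27.3% of all genes changed. None of the 9 passed between Lip+ISO and ISO by edgeR, where 3 had an unadjusted p under 0.05 and 1 passed by DESeq2. The sum of 8 endothelial markers was 131 to 244 CPM in DMSO, 240 to 450 in ISO, 77.0 to 233 in Lip and 100 to 287 in Lip+ISO, and none of the 8 passed for ISO against DMSO by edgeR or DESeq2, where 3 had an unadjusted p under 0.05. Of 7 mesothelial markers, Wt1 alone, counted above as an EGR relative, rose with ISO, beside 26.2% of all genes changed. The summed level of the 7 was 25.2 to 59.1 CPM in DMSO, 68.5 to 80.1 in ISO, 14.5 to 61.6 in Lip and 43.4 to 56.1 in Lip+ISO. The sum of 7 smooth muscle markers was 183 to 295 CPM in DMSO, 148 to 260 in ISO, 249 to 339 in Lip and 114 to 192 in Lip+ISO, highest in Lip and lowest in Lip+ISO as the means of Srf were. Acta2 and Tagln, which had the highest levels of the 7, are also in the list of SRF and MRTF targets. Other smooth muscle markers went another way: Des and Myh11 had their highest means in ISO and their lowest in Lip. The scarce Actg2 rose with ISO alone (1.94 ± 0.62, adjusted p = 0.0352, edgeR). No marker was at 0 in every library, and the part of these cells in the members' values was not tested. The 8 adipocyte markers, adiponectin and Fabp4 among them, summed to between 23751 and 38037 CPM over all libraries. Of these, the leptin gene Lep fell with ISO alone (-1.84 ± 0.25, adjusted p = 0.000192), and 1 fell in Lip+ISO against ISO, the HSL gene Lipe (-0.65 ± 0.15, adjusted p = 0.0165). Under inhibitors Lep and Lipe fell with ISO, and Lep, Lipe and Plin1 were lower in Lip+ISO than in DMSO.

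The genes most alike in pattern to each member were found by Pearson's r over the 12 log2 CPM values, which follow the 4 groups in all cases and carry no test. For Egr1 these were Chst11 (0.979), Plk3 (0.978), Arc and Chka (0.977 each) and Spin4 (0.973). For Egr2 they were Antxr1 (0.967) and Cxcl14 (0.964), and for Egr3 Cxcl14 (0.965). Nab1 was most like Rhoq (0.98) and Nudt6 (0.957), and Nab2 most like Prmt1 (0.945) and Utp18 (0.941). Srf was most like Fstl3 (0.96), Ier2 most like Slc3a2 (0.982) and Nr4a1 (0.98), and Ier3 most like Csrnp1 and Klf4 (0.997 each). Among the members themselves, r was 0.958 for Egr2 with Egr3, 0.976 for Ier2 with Ier3 and -0.876 for Nab1 with Nab2.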

How the data were processed

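RNA sequencing counts of 12 libraries in 4 groups of 3 were used, grouped and numbered as in their titles. The authors deposited raw read counts per gene, without normalization. Per the paper's methods and the processing notes, reads were aligned to mm9 with STAR 2.4.2a and counted for each RefSeq gene by iRNA-seq on HOMER tag files that kept 1 read per position and length. That limit could lower the counts of very abundant genes. In ISO, Ier3 held up to 8123 counts on 1090 counted bases and Egr1 up to 14579 on 3072. The effect of the limit on their values was not tested. The table's exon lengths, as deposited, served for values per kb. Gene starts are printed from 1.

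Differences were tested by edgeR 4.0.16 in R 4.3.3 (quasi-likelihood, two-sided). Of 20295 genes, filterByExpr kept 13543. TMM factors were 0.924 to 1.07, and the model held a mean for each group over the 12 libraries. Benjamini-Hochberg adjustment covered the 13543 genes, and standard errors are the fold change divided by the square root of F. The script was tested on simulated data. The study treats its replicates as independent experiments, while the labels do not say so, and p-values measure the spread between these samples. No pair of replicates agreed within sampling noise. CPM values use TMM-scaled totals, and a prior count of 2 was added on the log2 scale. The percentage of the gain left under inhibitors is the ratio of differences between group means, with its SE by error propagation.

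The members and lists were chosen with earlier results of these data known. Named genes are the members, at most 4 genes of each list with the largest change among those that passed an adjusted p of 0.05, and for likeness the 5 genes nearest to Egr1 and the 2 nearest to each other member. Some genes that this rule names are not reported here. Fibroblast and other markers are named where they move with a member. Stat6 was named for its overlap with Nab2 after the values were seen. Promoters and their coordinates come from RefSeq (GRCm38.p6).

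Alternatives were RLE scaling, library totals, no filter on low counts, DESeq2 1.42.0 (which the study used in an earlier version), only the groups compared, the replicate number as a block, no minimum fold change, and libraries left out. As a check of pairing, the deviations of same-numbered libraries from their group means correlated at 0.0373 to 0.369 in 18 pairs, against -0.329 to 0.0853 in 36 pairs with different numbers. Every pair was over 0.1 in the comparisons of ISO with DMSO, Lip with DMSO, Lip+ISO with Lip and Lip+ISO with DMSO, but not in that of Lip+ISO with ISO. The numbers were therefore taken to pair the samples in these 4 comparisons, as a hint from the data. The edgeR p-values come from the fit without the block unless the block is named.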

Additional observations from a re-analysis of the deposited data

Results flagged for a closer look

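The response of Nab2 to ISO differed between cultures with and without lipase inhibitors by -1.11 on the log2 scale (SE 0.22, adjusted p = 0.0243, edgeR), which marks it as a difference between groups under the same treatment. All 3 ISO libraries lay above all 3 DMSO libraries, and all 3 Lip+ISO libraries lay below all 3 Lip libraries. The call was lost in 9 of 15 fits that left out libraries, over which the difference ranged from -1.25 to -0.89.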

How the results depend on the processing

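Of 1032 values recomputed for the 8 members, 969 kept their direction and their side of the threshold or, for levels, stayed within 1 SD. Of the others, 25 lost and 16 gained significance, 20 turned direction and 2 moved. Among the named list genes, 1413 of 1528 values kept both and 115 lost significance. The counts that follow are over the 7 members other than Egr1.

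Without a minimum fold change, 5 were higher in place of 3 for ISO against DMSO. For Lip+ISO against Lip 3 were higher in place of 1 and 2 lower in place of 0, for Lip+ISO against ISO 1 was higher in place of 0, and for Lip+ISO against DMSO 2 were lower in place of 0. For Lip+ISO against DMSO, library totals, no filter on low counts and the replicate block each gave 1 higher in place of 2, since Ier2 sits at the 2-fold limit, and leaving out libraries gave 1 to 2. For the difference between the responses, DESeq2 and the replicate block each gave 3 lower in place of 1 (Egr2, Egr3 and Nab2, with adjusted p under the block of 0.0133, 0.0299 and 0.00526), and leaving out libraries gave 0 to 2. Nab1 passed there too with the block (0.39, adjusted p = 0.0222), under the 2-fold limit. The cause was not tested. The block changed no other count of members called. All 12 libraries correlated best with a library of their own number.

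The values that turned direction were small and did not pass. Leaving out libraries gave ranges of -0.054 to 0.011 for Nab1 with ISO alone and -0.0054 to 0.41 for Egr2 with ISO under inhibitors. For Lip against DMSO they were -0.39 to 0.094 for Egr2, -0.30 to 0.16 for Egr3 and -0.047 to 0.29 for Srf. For Lip+ISO against ISO they were -0.22 to 0.016 for Srf, -0.071 to 0.15 for Ier2 and -0.15 to 0.17 for Ier3, and Ier3 was -0.026 with library totals and -0.0012 without a filter. For Lip+ISO against DMSO, Egr2 ranged from -0.19 to 0.29 and was -0.034 with library totals.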
